A study of Mus musculus with 8 samples.

Results

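The 36 genes described here are genes known from lung mesenchyme, the connective tissue, smooth muscle and pericytes that surround the lung epithelium, measured in RNA of sorted epithelial cells. They were taken from a given list of symbols, which was chosen with earlier results of these data known. All 36 were found among the 24568 genes of the array, each by the spot with the highest mean signal over the 8 arrays. Fluorescence-activated cell sorting had isolated alveolar epithelial type I cells (AECI) and type II cells (AECII) from lungs of mouse embryos, with in vivo inhibition of Fgfr2b signalling over E16.5 to E18.5. The 8 single-colour arrays fell into 4 groups of 2 biological replicates: mutant AECI, WT AECI, mutant AECII and WT AECII. The sources used here do not state what the mutants carried, their strain, the agent given, the surface markers used in sorting or any pooling of embryos, which limits each group as a model.

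AECI are the thin cells across which gas is exchanged, and AECII are the cells that make surfactant. Under them lie fibroblasts and smooth muscle cells, which lay down most of the fibrillar collagen, elastin and microfibrils of the lung and receive the hedgehog signal that the epithelium sends. Transcripts of these cells in a sorted epithelial sample are commonly read as a gauge of its purity, although several of the genes, among them those of collagen VI, Sparc and Vim, are also known from cells other than fibroblasts. In such bulk samples, fewer cells of a type and less RNA per cell cannot be told apart.

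Values are log2 signals after the normalization of the authors, on a scale whose median over all spots was 5.01 and whose maximum was 15.99 on every array. No detection calls came with them. As a stand-in, the 95th percentile of 1362 olfactory and vomeronasal receptor genes, which are not known to be used in lung, was between 5.91 and 6.50 on the 8 arrays and is called the dim level below. The sorted populations carried the markers of their labels: 12 epithelial markers had mean signals of 11.96 to 12.37, the 12 AECI markers 12.90 to 13.09 on AECI arrays and 9.42 to 10.90 on AECII arrays, and the 12 AECII markers 11.10 to 12.12 on AECI arrays and 13.85 to 13.94 on AECII arrays. Xist was at 3.50 to 5.14 on the 4 mutant arrays and at 12.44 to 13.17 on the 4 WT arrays. Uty of the Y chromosome was at 6.71 to 7.47 on mutant and 2.72 to 3.24 on WT arrays. Genotype and the sex that these transcripts mark therefore cannot be told apart in any comparison of mutant with WT. Of the genes described here, Bgn lies on the X chromosome.

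Promoter windows of genes from both sides of the main contrast are shown first, since Col3a1 and Col1a2 differed widely between arrays of one group whereas Col6a1 and Sparc differed between AECI and AECII and hardly between replicates. Each runs 5′ to 3′ from 250 bases before to 50 bases after the RefSeq start in build GRCm38.p6, and capitals mark the letters TATAAA or CCAAT on either strand.
Col3a1, chr1:45311288-45311587, plus strand: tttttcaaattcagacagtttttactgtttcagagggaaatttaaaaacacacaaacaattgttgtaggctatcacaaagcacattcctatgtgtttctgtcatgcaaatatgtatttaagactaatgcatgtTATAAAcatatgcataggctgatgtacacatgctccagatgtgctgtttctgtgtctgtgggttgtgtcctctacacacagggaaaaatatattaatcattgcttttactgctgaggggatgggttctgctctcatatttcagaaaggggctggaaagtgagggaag
Col1a2, chr6:4505368-4505667, plus strand: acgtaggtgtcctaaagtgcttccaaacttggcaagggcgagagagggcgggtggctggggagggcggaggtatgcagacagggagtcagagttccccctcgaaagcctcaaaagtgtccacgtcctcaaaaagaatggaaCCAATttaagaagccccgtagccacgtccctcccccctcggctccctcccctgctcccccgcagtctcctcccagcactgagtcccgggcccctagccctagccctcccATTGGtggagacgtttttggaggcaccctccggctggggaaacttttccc
Col6a1, chr10:76725995-76726294, minus strand: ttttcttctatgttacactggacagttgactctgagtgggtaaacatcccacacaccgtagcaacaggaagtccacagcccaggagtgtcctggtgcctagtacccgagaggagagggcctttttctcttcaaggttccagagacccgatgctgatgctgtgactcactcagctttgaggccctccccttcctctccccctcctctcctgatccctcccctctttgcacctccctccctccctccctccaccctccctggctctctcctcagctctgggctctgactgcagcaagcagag
Sparc, chr11:55420031-55420330, minus strand: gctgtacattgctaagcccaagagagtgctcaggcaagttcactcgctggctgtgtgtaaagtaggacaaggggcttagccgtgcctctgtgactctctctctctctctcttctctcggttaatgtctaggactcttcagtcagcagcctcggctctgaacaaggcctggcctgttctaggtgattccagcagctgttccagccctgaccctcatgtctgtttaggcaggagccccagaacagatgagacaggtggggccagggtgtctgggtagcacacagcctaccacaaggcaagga
In the Col3a1 window TATAAA begins at base -117, counted with the RefSeq start as base 0. The Col1a2 window holds CCAAT at base -109 and its complement ATTGG at base 0, and neither the Col6a1 nor the Sparc window holds either motif. RefSeq windows were at hand for 23 of the 36 genes. TATAAA occurred in 6 of these (Col3a1, Meox2, Postn, Tbx4, Twist1 and Vim), against 13.6% of 32851 mouse promoter windows, and CCAAT in 5 (Cnn1, Col1a2, Postn, Twist1 and Vim), against 37.4%. The CArG box of smooth muscle genes, searched by its name's consensus, and the GLI site TGGGTGGTC were sought on either strand. Both occurred in the windows of 0 of the 23 genes, against 1.63% and 0.253% of all windows. With shares this low, 0 among 23 genes cannot tell whether these sites are rarer in the list. Genes of the list without a window were not searched.

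Against the dim level the genes ranged widely. A total of 10 were at or above the dim level on all 8 arrays: Col6a1, Col6a2, Fn1, Sparc, Eln, Mfap4, Acta2, Tagln, Vim and Ptch1. In contrast, 12 were below it on both arrays of every group, namely Col5a1, Col5a2, Lum, Des, Pdgfrb, Cspg4, Thy1, Twist1, Meox2, Tbx4, Tbx5 and Gli1, so that their signals lay among those of the receptor genes. Below the dim level on both arrays were 19 of the 36 genes in mutant AECI, 17 in WT AECI, 14 in mutant AECII and 14 in WT AECII. Counted by array, between 10 genes (mutant AECI replicate 1) and 22 genes (mutant AECII replicate 1) reached it.

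**Figure D1:**
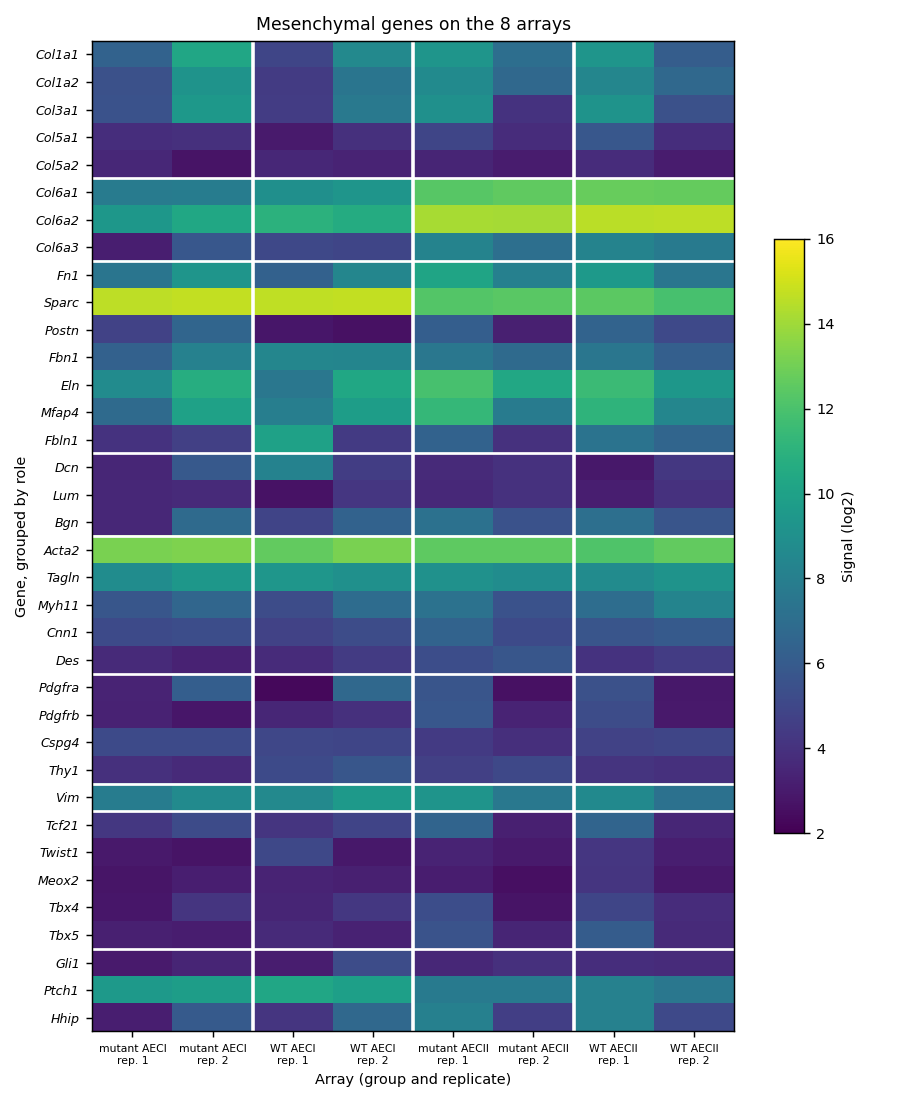
Heat map of the log2 signal (colour scale, 2 to 16) of the 36 mesenchymal genes (rows, grouped by role and parted by white lines) on the 8 arrays (columns, mutant AECI, WT AECI, mutant AECII and WT AECII, 2 replicates each). Fibrillar collagen rows change colour between replicates of one group, whereas the Col6a1, Col6a2, Sparc and Ptch1 rows change between AECI and AECII.

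Within each group, 1 of the 2 arrays carried higher signals of most of the 36 genes. It was replicate 2 in mutant AECI (30 of the 36 genes) and in WT AECI (23). In mutant AECII (28) and in WT AECII (27) it was replicate 1. Only 13 of the 36 genes had this order in all 4 groups. The mean log2 signal of the 36 genes was 5.57 and 6.72 in mutant AECI, 6.01 and 6.67 in WT AECI, 7.34 and 6.01 in mutant AECII, and 7.31 and 6.26 in WT AECII, replicate 1 before replicate 2 as in all values below. The spread within a group was thus wider than that between the group means.

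The fibrillar collagens, the main tensile fibres of connective tissue, showed this most. Col3a1, the type III collagen chain, had signals of 5.53 and 9.45 in mutant AECI, 4.49 and 7.68 in WT AECI, 9.04 and 4.06 in mutant AECII, and 9.17 and 5.45 in WT AECII. Col1a1, a type I collagen chain, had 6.38 and 10.26 in mutant AECI, 4.94 and 8.57 in WT AECI, 9.29 and 7.05 in mutant AECII, and 9.28 and 6.15 in WT AECII. In both genes the high array of every group lay above the low array of every other group, and the 4 groups overlapped. Col1a2, the partner chain of Col1a1, had 5.49 and 9.18 in mutant AECI, 4.42 and 7.44 in WT AECI, 8.68 and 6.73 in mutant AECII, and 8.45 and 6.72 in WT AECII. Col5a1 and Col5a2 encode chains of type V collagen, which sets the width of type I fibrils, and stayed below the dim level on all arrays, at 2.99 to 5.82 and 2.76 to 3.77. A second spot of Col1a1 followed the first with r = 0.98 over the 8 arrays, while the second spots of Col1a2 and Col3a1, below the dim level, did not (r = -0.26 and -0.06).

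Among glycoproteins and elastic fibre genes, Fn1 (fibronectin), Eln (elastin) and Mfap4, a microfibril-associated protein, moved with the collagens. Mfap4 had 6.82 and 10.01 in mutant AECI, 8.0 and 9.79 in WT AECI, 11.31 and 7.82 in mutant AECII, and 11.12 and 8.42 in WT AECII. Eln had 8.78 and 10.70 in mutant AECI, 7.54 and 10.35 in WT AECI, 11.93 and 10.38 in mutant AECII, and 11.53 and 9.43 in WT AECII. Fn1 ranged over 6.37 to 10.16, with the same 4 arrays high. Fbn1 (fibrillin) and Postn (periostin, a matrix protein of activated fibroblasts) followed in 3 of the 4 groups but not in WT AECI, where Fbn1 was at 8.41 and 8.35 and Postn at 2.84 and 2.65.

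Of the small leucine-rich proteoglycans that bind collagen fibrils, Bgn (biglycan) had 3.57 and 6.82 in mutant AECI, 4.86 and 6.39 in WT AECI, 7.21 and 5.52 in mutant AECII, and 7.11 and 5.67 in WT AECII. Dcn (decorin) and Lum (lumican) did not share that order, and Lum stayed at 2.71 to 4.23. The second spot of Bgn, below the dim level at 2.55 to 3.17, did not follow the first (r = -0.14). Dcn and Fbln1 (fibulin 1, an elastic fibre and basement membrane protein) were highest on WT AECI replicate 1, which was low for the collagens. Fbln1 had 4.08 and 4.66 in mutant AECI, 10.01 and 4.39 in WT AECI, 6.38 and 3.98 in mutant AECII, and 7.35 and 6.55 in WT AECII, and its second spot followed with r = 0.93. Dcn was at 8.21 on that array and at 2.92 to 5.90 on the others. The same array was high in basal and stratified epithelium genes, 8 genes picked after their values were seen, with a mean of 11.01 against 5.96 to 7.22 on the other 7 arrays. Their part in the Fbln1 and Dcn signals was not tested.

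Pdgfra, the PDGF receptor of lung fibroblasts, was at 3.42 and 6.19 in mutant AECI, 2.27 and 6.71 in WT AECI, 5.69 and 2.65 in mutant AECII, and 5.47 and 2.92 in WT AECII. It reached the dim level on WT AECI replicate 2 and on no other array. Pdgfrb, the PDGF receptor of pericytes, differed in the same way in AECII (5.81 and 3.42 in mutant, 5.24 and 2.95 in WT) and stayed at 2.84 to 3.93 in AECI. The second spot of Pdgfra, below the dim level, did not follow the first (r = -0.11). It was higher on replicate 1 in all 4 groups, with 3.86 and 3.08 in mutant AECI and 3.63 and 3.31 in WT AECI. In AECII it had 4.26 and 3.43 in mutant and 3.49 and 3.34 in WT. Vim (vimentin, the intermediate filament of mesenchymal cells) was above the dim level throughout, at 7.23 to 9.53, and shared the order of the collagens in all 4 groups.

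Tcf21 and Tbx4, transcription factors of lung mesenchyme, were higher on the same 4 arrays, within 3.23 to 6.50 and 2.73 to 5.32. Tbx5, which acts with Tbx4 in lung bud growth, separated the replicates in AECII alone, with 5.56 and 3.44 in mutant and 6.05 and 3.64 in WT. Meox2 and Twist1, further mesenchymal transcription factors, did not pass the dim level on any array. Among targets of the hedgehog signal, Hhip, which encodes a protein that binds hedgehog ligands, had 3.19 and 5.94 in mutant AECI, 4.14 and 6.73 in WT AECI, 8.08 and 4.61 in mutant AECII, and 8.14 and 5.07 in WT AECII. The second spot of Hhip stayed below the dim level, at 3.81 to 5.08 (r = 0.61). In AECI that spot was not higher on replicate 2, with 4.14 and 3.85 in mutant and 3.84 and 3.81 in WT. Gli1, the transcription factor that reports hedgehog signalling, was below the dim level throughout, with its highest signal, 5.26, on WT AECI replicate 2.

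**Figure D2:**
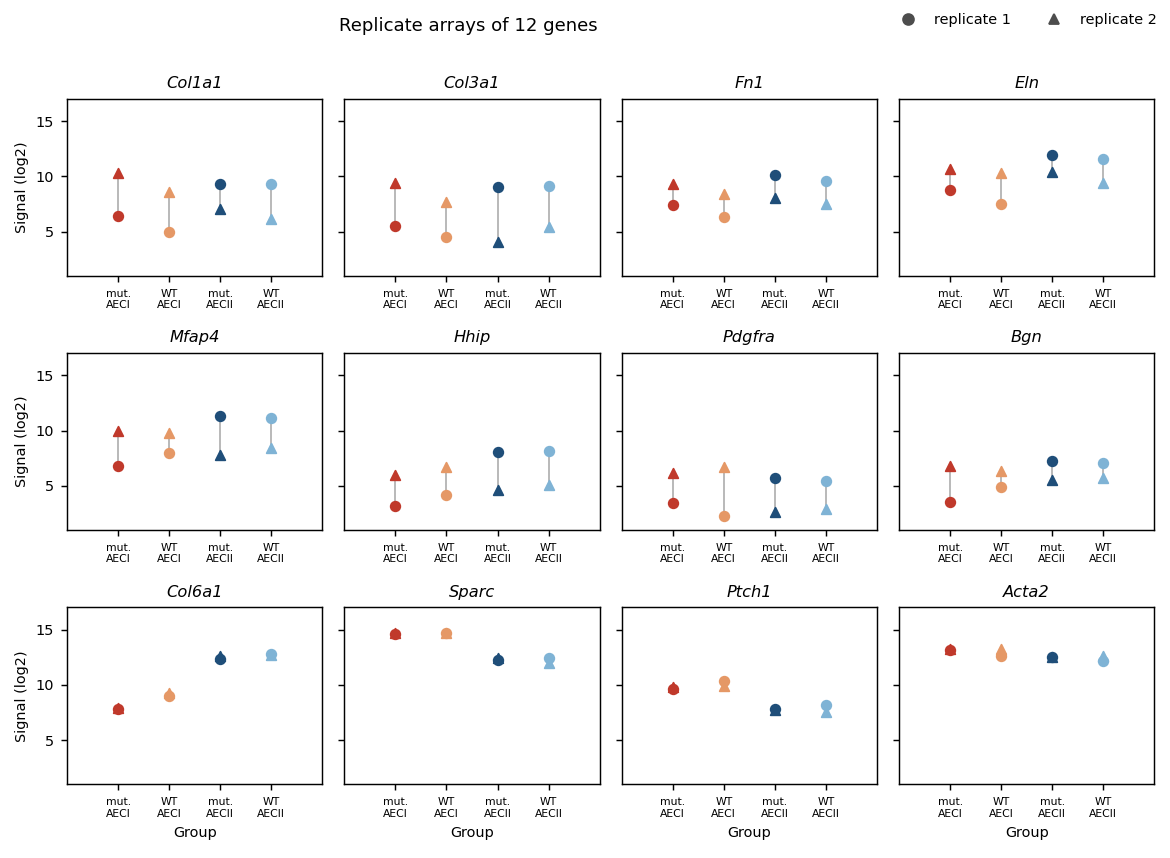
Log2 signal (y axis) of 12 of the genes in the 4 groups (x axis), with replicate 1 as a circle, replicate 2 as a triangle and a line joining the pair. In the upper 8 panels (Col1a1 to Bgn) the triangle is higher in both AECI groups and the circle in both AECII groups, whereas in the lower 4 panels (Col6a1, Sparc, Ptch1 and Acta2) the replicates lie close together.

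Replicate arrays were more than 2-fold apart for 14 of the 36 genes in mutant AECI (16.1% of all genes), 15 in WT AECI (18.4% of all genes), 20 in mutant AECII (11.5%) and 20 in WT AECII (12.7%). Replicate 2 was the higher in all 14 of these in mutant AECI and in 12 of 15 in WT AECI, replicate 1 in all 20 in mutant AECII and in 18 of 20 in WT AECII. The median size of the difference was 0.80 against 0.39 for all genes in mutant AECI, 0.78 against 0.42 in WT AECI, 1.25 against 0.35 in mutant AECII and 1.25 against 0.36 in WT AECII, on the log2 scale. The median residual SD was 0.96 for the 36 genes and 0.39 for all genes, with the extremes at Col3a1 (2.83) and Col6a1 (0.14).

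A total of 13 genes had the same high array in all 4 groups (Col1a1, Col1a2, Col3a1, Col5a1, Fn1, Vim, Pdgfra, Eln, Tcf21, Tbx4, Mfap4, Bgn and Hhip), as had 6.28% of all genes. With each pair more than 2-fold apart, 9 of the 36 did so (those named, without Col5a1, Vim, Tcf21 and Tbx4), against 29 of all genes or 0.118%. The order of the arrays was read from these genes themselves, so that the counts are a description. Some of the 13 genes were dim. Col5a1 and Tbx4 reached the dim level on 0 of the 8 arrays, Pdgfra on 1, Tcf21 on 2, and Bgn and Hhip on 3 each. Among the 20 other genes of the 29, singled out after their values were seen, were Mgp and Ogn, which encode matrix proteins of mesenchymal cells, Nid1 and Lama4 of basement membranes, Mmp2, a matrix protease, Cdh5, the endothelial cadherin, and the adult beta globins Hbb-b1 and Hbb-b2.

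As a measure of likeness, the deviation of each gene from its group means was correlated with the mean deviation of all the other genes of the list over the 8 arrays, in which the 2 deviations of a group mirror each other. This r was at or above 0.8 for 15 of the 36 genes (41.7%) and for 4.85% of all genes. The reference was drawn from the listed genes themselves, so that these shares too are a description. The r was highest for Mfap4 (0.9995), Col3a1 (0.99), Hhip (0.99), Vim (0.97), Fn1 (0.97) and Tbx4 (0.96), of which Tbx4 was below the dim level on all 8 arrays. Postn (0.91) and Fbn1 (0.86) were also past 0.8. Near or below 0 were Des (-0.46), Dcn (-0.21), Thy1 (-0.13), Lum (-0.09), Twist1 (-0.05), Acta2 (-0.04), Fbln1 (-0.0025), Col6a1 (0.04) and Col5a2 (0.07). Of 30 other lung mesenchyme genes, 8 reached 0.8, namely Foxf1, Ogn, Mgp, Nid1, Wnt2b, Wnt5a, Aspn and Mfap2. Among markers of other cells, 0.8 was reached by 1 of 12 endothelial (Cdh5, 0.90), 1 of 5 erythroid (Epb42, 0.97) and 1 of 12 epithelial markers (Nkx2-1, 0.86). It was reached by 0 of 12 leukocyte markers. In lists this short, single genes cannot be told apart from the 4.85% of all genes. The r also takes no account of the size of a difference. Of the 12 epithelial markers, 0 had the array order in all 4 groups, and 0 had replicates more than 2-fold apart in any group.

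None of the 5 smooth muscle genes had the array order of the collagens in all 4 groups. Acta2 (smooth muscle actin) was well above the upper quartile of all spots (8.06), at 13.17 and 13.27 in mutant AECI, 12.64 and 13.21 in WT AECI, 12.50 and 12.55 in mutant AECII, and 12.17 and 12.61 in WT AECII. Tagln (transgelin, an actin-binding protein) stayed within 8.77 to 9.43. Their replicates were less than 2-fold apart in every group. By the spots used, these 2 genes, commonly used as smooth muscle markers, were thus high on all arrays, also where collagen and Pdgfra signals were low. The second spot of Acta2 did not follow the first (r = 0.18). It ranged over 5.11 to 8.36 and was lowest on WT AECI replicate 1, where it lay below the dim level (6.12). Myh11, the smooth muscle myosin heavy chain, ranged over 5.25 to 8.30 and was highest on WT AECII replicate 2, an array low in collagens. Cnn1 (calponin) was at 4.78 to 6.47, and Des (desmin, the muscle intermediate filament) at 3.34 to 5.76.

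Markers of other cells were set beside this order. The mean signal of 12 endothelial markers was 4.92 and 5.45 in mutant AECI, 4.63 and 5.04 in WT AECI, 5.45 and 4.74 in mutant AECII, and 5.15 and 4.77 in WT AECII, which is the array order of the collagens, with between 2 and 4 of the 12 at or above the dim level on an array. Only 2 of the 12 had that order in all 4 groups, and the median of the 12 ran the other way in WT AECII (4.62 and 5.02). Cdh5, the only 1 of the 12 with each pair more than 2-fold apart, had 4.15 and 7.53 in mutant AECI, 5.50 and 7.22 in WT AECI, 7.03 and 5.54 in mutant AECII, and 6.33 and 5.24 in WT AECII. The mean of 5 erythroid markers had the order in WT AECI (6.41 and 9.04) and WT AECII (9.16 and 6.56) but not in mutant AECI (8.34 and 8.05) or mutant AECII (8.77 and 9.05), and 2 of the 5 (Hba-a1 and Epb42) had it in all 4 groups. Hbb-b1, a globin outside that list, had it with wide differences, at 11.42 and 14.77 in mutant AECI, 11.91 and 14.98 in WT AECI, 14.97 and 12.33 in mutant AECII, and 14.33 and 12.46 in WT AECII. The 12 leukocyte markers, at 5.76 to 6.71, and the 12 epithelial markers had no gene that separated all 4 pairs in this order. The part of these cells in the differences between replicates was not tested.

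**Figure D3:**
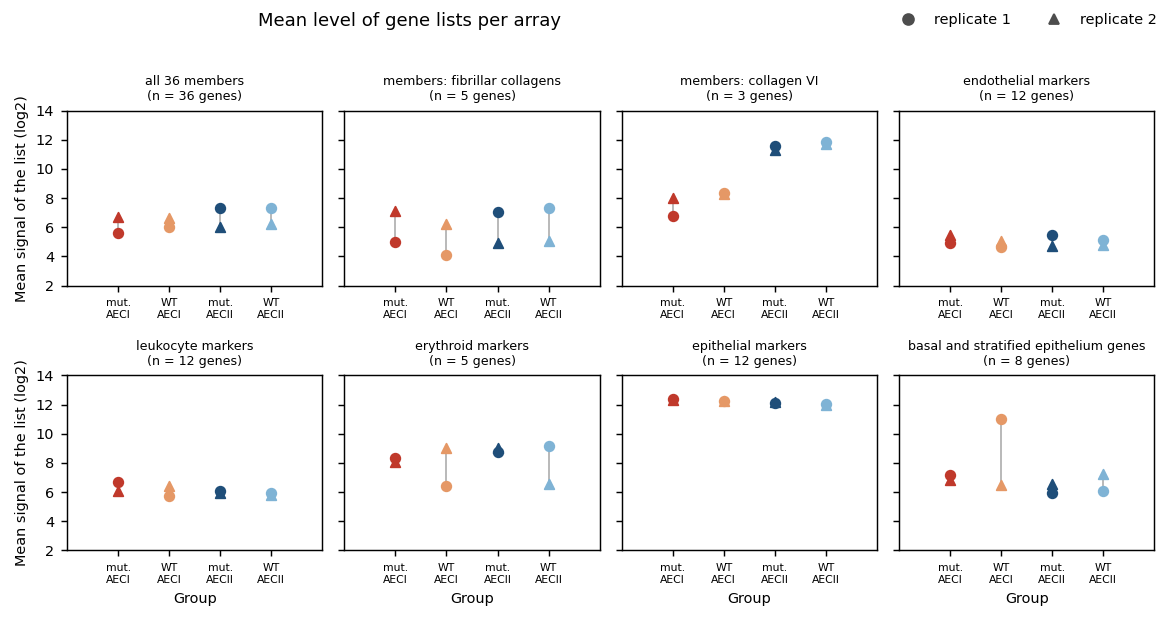
Mean log2 signal (y axis) of 8 gene lists on each array, by group (x axis), with replicate 1 as a circle and replicate 2 as a triangle. The fibrillar collagens separate the replicates in all 4 groups and collagen VI separates AECI from AECII, whereas the epithelial markers lie between 11.96 and 12.37 on all arrays and the basal and stratified genes stand out, at 11.01, on WT AECI replicate 1.

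AECI were then compared with AECII to ask which of these genes differed between the populations beyond the spread of replicates. Collagen VI, which forms beaded filaments next to basement membranes, was lower in AECI, and Sparc, a collagen-binding glycoprotein, and Ptch1, the hedgehog receptor, were higher. With mutant and WT averaged, 2 of the 36 genes were higher in AECI (5.80% of all genes) and 4 lower (9.01% of all genes). The median log2 fold change was -0.36 for the 36 genes and 0.01 for all genes, and leaving out 1 array moved that of the 36 genes between -1.02 (without mutant AECII replicate 2) and -0.04 (without mutant AECII replicate 1).

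Col6a1 had signals of 7.82 and 7.86 in mutant AECI and 8.96 and 9.28 in WT AECI, against 12.38 and 12.58 in mutant AECII and 12.76 and 12.70 in WT AECII. No AECI array came near an AECII array, and the log2 fold change was -4.12 ± 0.18 (SE, limma, adjusted p = 0.00014). Col6a2 had 9.39 and 10.34 in mutant AECI and 11.00 and 10.60 in WT AECI, against 14.15 and 14.11 in mutant AECII and 14.54 and 14.60 in WT AECII, a log2 fold change of -4.01 ± 0.26 (limma, adjusted p = 0.000239). Its second spot followed with r = 0.98. Col6a3, the third chain, had 3.15 and 5.80 in mutant AECI and 5.05 and 4.94 in WT AECI, all below the dim level, against 8.28 and 7.12 in mutant AECII and 8.27 and 7.79 in WT AECII (log2 fold change -3.13 ± 0.58, limma, adjusted p = 0.0134). Because the AECI signals of Col6a3 lay among those of the receptor genes, its fold has no stated floor, and without mutant AECII replicate 1 or WT AECII replicate 1 the adjusted p was 0.0517 or 0.0523 in limma.

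Sparc stood at 14.58 and 14.72 in mutant AECI and 14.68 and 14.72 in WT AECI, against 12.27 and 12.41 in mutant AECII and 12.46 and 11.93 in WT AECII. The groups did not overlap, the log2 fold change was 2.40 ± 0.20 (limma, adjusted p = 0.000492), and the second spot gave r = 0.9955. Ptch1 had 9.59 and 9.78 in mutant AECI and 10.30 and 9.90 in WT AECI, against 7.78 and 7.73 in mutant AECII and 8.16 and 7.58 in WT AECII (log2 fold change 2.08 ± 0.21, limma, adjusted p = 0.00115). The second spot of Ptch1 followed less closely (r = 0.65) and overlapped between the populations in mutant embryos, at 8.36 and 8.17 in mutant AECI against 5.87 and 8.22 in mutant AECII. Its fellow hedgehog targets Gli1 and Hhip did not pass, at -0.04 ± 0.45 and -1.47 ± 1.15. Des was lower in AECI (-1.13 ± 0.25, limma, adjusted p = 0.0275), at 3.68 and 3.34 in mutant AECI and 3.71 and 4.43 in WT AECI, against 5.32 and 5.76 in mutant AECII and 4.07 and 4.51 in WT AECII. Its arrays overlapped between the populations, all lay below the dim level, and with the mean of both of its spots the value was -0.40 (limma, adjusted p = 0.239). Leaving out any 1 array other than WT AECI replicate 2 gave Des an adjusted p of 0.0536 to 0.0957 in limma. Acta2 was above all AECII arrays on all AECI arrays and missed the threshold (0.61 ± 0.21, limma, adjusted p = 0.114). Its second spot overlapped between the populations. That spot had 8.10 and 7.66 in mutant AECI and 5.11 and 6.84 in WT AECI, against 7.51 and 8.36 in mutant AECII and 6.84 and 7.59 in WT AECII.

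**Figure D4:**
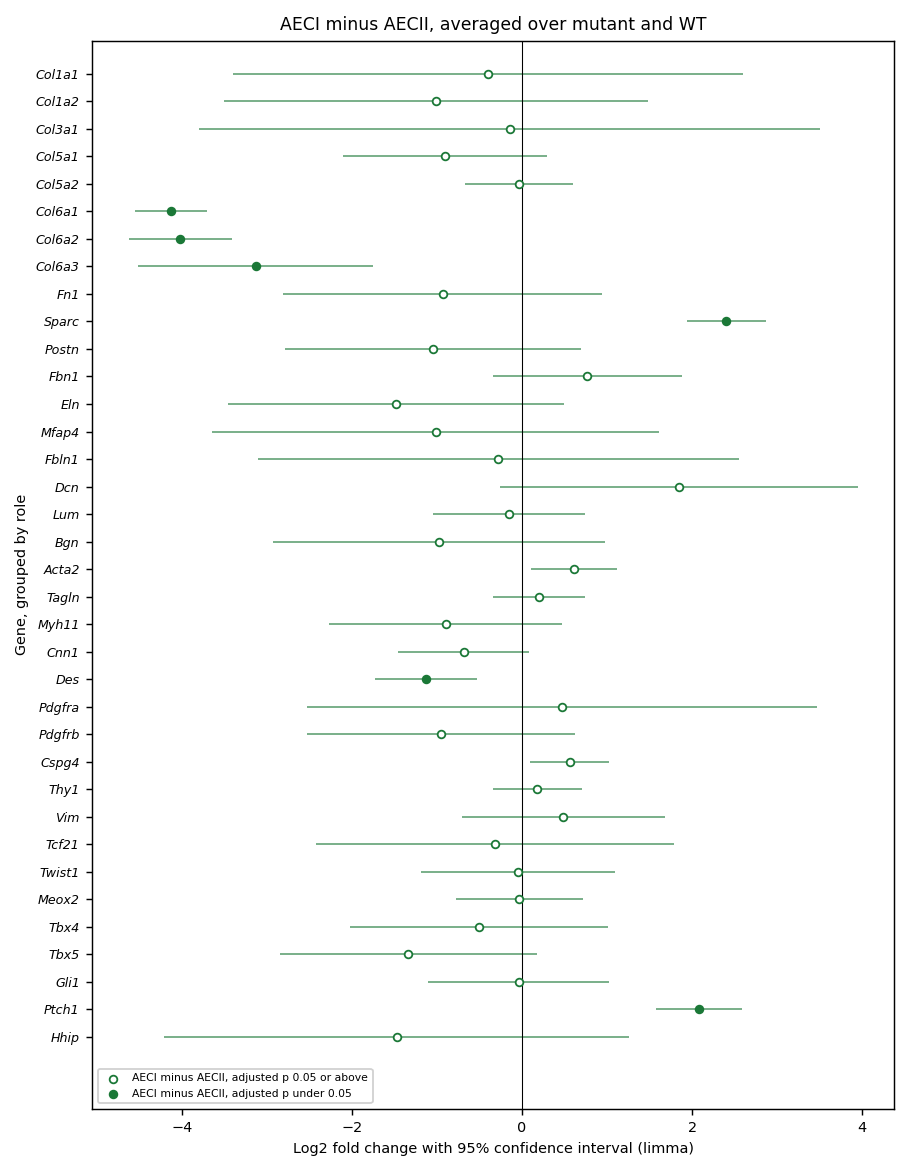
Log2 fold change of AECI over AECII, averaged over mutant and WT (x axis), of the 36 genes (y axis, grouped by role), with bars for the 95% confidence interval and filled points for an adjusted p under 0.05. Col6a1, Col6a2, Col6a3 and Des lie to the left of 0 and Sparc and Ptch1 to the right, while the intervals of Col1a1, Col1a2 and Col3a1 span 0 widely.

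The populations were also compared within each genotype. In mutant embryos, 2 genes were higher in AECI (Sparc, 2.31, and Ptch1, 1.93; 2.93% of all genes) and 3 lower (Col6a1, -4.64, Col6a2, -4.26, and Des, -2.03; 4.87% of all genes). In WT embryos, 3 were higher (Sparc, 2.50, Ptch1, 2.23, and Thy1, 1.41; 2.87% of all genes) and 2 lower (Col6a1, -3.61, and Col6a2, -3.77; 4.14% of all genes). Thy1, a surface glycoprotein of fibroblasts, was at 5.14 and 5.74 in WT AECI against 4.13 and 3.94 in WT AECII, below the dim level throughout, with a limma adjusted p of 0.0434. The adjusted p of Thy1 was above 0.05 without any 1 of the 8 arrays (0.0512 to 0.203). Ptch1 and Des in mutant embryos were above 0.05 without any 1 of the 4 mutant arrays, with limma adjusted p-values of 0.0563 to 0.0842 for Ptch1 and 0.0637 to 0.12 for Des. In WT embryos, Ptch1 was above 0.05 without WT AECII replicate 2 (limma, adjusted p = 0.058).

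Wide intervals went with the fibroblast genes. The 95% confidence interval of the AECI over AECII log2 fold change, averaged over genotypes, ran from -3.40 to 2.59 for Col1a1, from -3.50 to 1.48 for Col1a2 and from -3.79 to 3.50 for Col3a1, intervals that include differences of several fold in either direction. By contrast it ran from -0.35 to 0.74 for Tagln, which was above the dim level on all arrays.

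In a list of 30 other lung mesenchyme genes, 5 were higher in AECI (5.80% of all genes) and 2 lower (9.01% of all genes), averaged over genotypes. Higher were Fbln5, an elastic fibre protein (log2 fold change 4.59 ± 0.25), Pcolce, an enhancer of procollagen processing (3.67 ± 0.33), the collagen and elastin cross-linking enzymes Lox (3.16 ± 0.51) and Loxl2 (1.16 ± 0.22), and the transcription factor Snai2 (1.48 ± 0.27). Lower were Serpinf1, a secreted serpin (-4.36 ± 0.21), and Tgfbi, a collagen-binding protein (-2.93 ± 0.50). Of 11 other genes of the hedgehog pathway, set against the same shares of all genes, the ligand gene Shh was higher (1.10 ± 0.19), and Gli3, a transcription factor of the pathway, and Sufu, its inhibitor, were lower (-1.96 ± 0.18 and -2.03 ± 0.19), all by limma at an adjusted p under 0.05. Between mutant and WT, 0 of these 30 and 0 of these 11 genes passed in AECI (0.0163% of all genes) or in AECII (0.0122% of all genes).

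The comparison of mutant with WT asked whether inhibition of Fgfr2b signalling went with a change in these genes. In it, genotype and the sex marked by Xist and Uty cannot be told apart. None passed the threshold: 0 of the 36 in AECI (0.0163% of all genes), 0 in AECII (0.0122% of all genes) and 0 in the average of both populations (0.0448% of all genes), by limma. At an unadjusted p under 0.05 there were 4, 3 and 2 of the 36 genes, against 1878, 1084 and 1868 of all genes. The median log2 fold change was -0.34 in AECI, -0.08 in AECII and -0.23 in the average. These medians moved with single arrays, since in AECI the median ran between -0.47 and 0.22 and in AECII between -0.68 and 0.52 when 1 array was left out.

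The genes with the smallest p in AECI were Thy1, with 3.93 and 3.66 in mutant AECI against 5.14 and 5.74 in WT AECI, and Col6a1, with 7.82 and 7.86 in mutant AECI against 8.96 and 9.28 in WT AECI. Thy1 differed by -1.64 ± 0.31 and Col6a1 by -1.28 ± 0.25 on the log2 scale (limma, adjusted p = 0.328 and 0.345). In both genes the arrays of mutant and WT AECI did not overlap. The collagen VI partner Col6a2 gave -0.93 ± 0.36 (limma, adjusted p = 0.631). On the same arrays the 12 AECII markers averaged 11.10 and 11.35 in mutant AECI against 12.12 and 11.92 in WT AECI, with a median log2 fold change of -0.79, a positive value in 1 of the 12, and an unadjusted p under 0.05 in 7 and an adjusted p under 0.05 in 0 of them by limma. The part of AECII transcripts in the collagen VI values was not tested. Postn had 4.75 and 6.56 in mutant AECI against 2.84 and 2.65 in WT AECI, a log2 fold change of 2.91 ± 1.03 (limma, adjusted p = 0.6), and was the other gene with an unadjusted p under 0.05. Both WT AECI arrays and mutant AECI replicate 1 lay below the dim level for Postn, so that this fold has no stated floor, and its second spot overlapped between the groups, at 3.44 and 5.94 in mutant AECI against 4.48 and 3.02 in WT AECI.

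In AECII, Des had 5.32 and 5.76 in mutant against 4.07 and 4.51 in WT (log2 fold change 1.25 ± 0.36, limma, adjusted p = 0.998). Thy1 had 4.67 and 5.02 in mutant AECII against 4.13 and 3.94 in WT AECII (0.81 ± 0.31, limma, adjusted p = 0.998). Cspg4, the NG2 proteoglycan of pericytes, had 4.40 and 3.87 in mutant AECII against 4.77 and 4.92 in WT AECII (-0.71 ± 0.28, limma, adjusted p = 0.998). All 3 lay below the dim level on these arrays. In the average of both populations, Col6a1 and Col6a2 had the smallest p, at -0.76 ± 0.18 and -0.69 ± 0.26 (limma, adjusted p = 0.486 and 0.634), and Fbln1 followed at -2.30 ± 1.19, with its high signal on WT AECI replicate 1. In the same average, the median log2 fold change of the 12 AECII markers was -0.42, with a positive value in 1 of them and 5 at an unadjusted p under 0.05, and that of the 12 AECI markers was 0.68, with a positive value in 11 of them and 8 at an unadjusted p under 0.05, while 0 of either list passed the threshold in limma. The AECI marker difference lay mostly in AECII, with a median of 1.16 and 12 of 12 positive, against 0.20 and 9 of 12 in AECI. Their mean signal was 10.37 and 10.90 in mutant AECII against 9.67 and 9.42 in WT AECII. The part of either marker list in the collagen VI values was not tested.

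**Figure D5:**
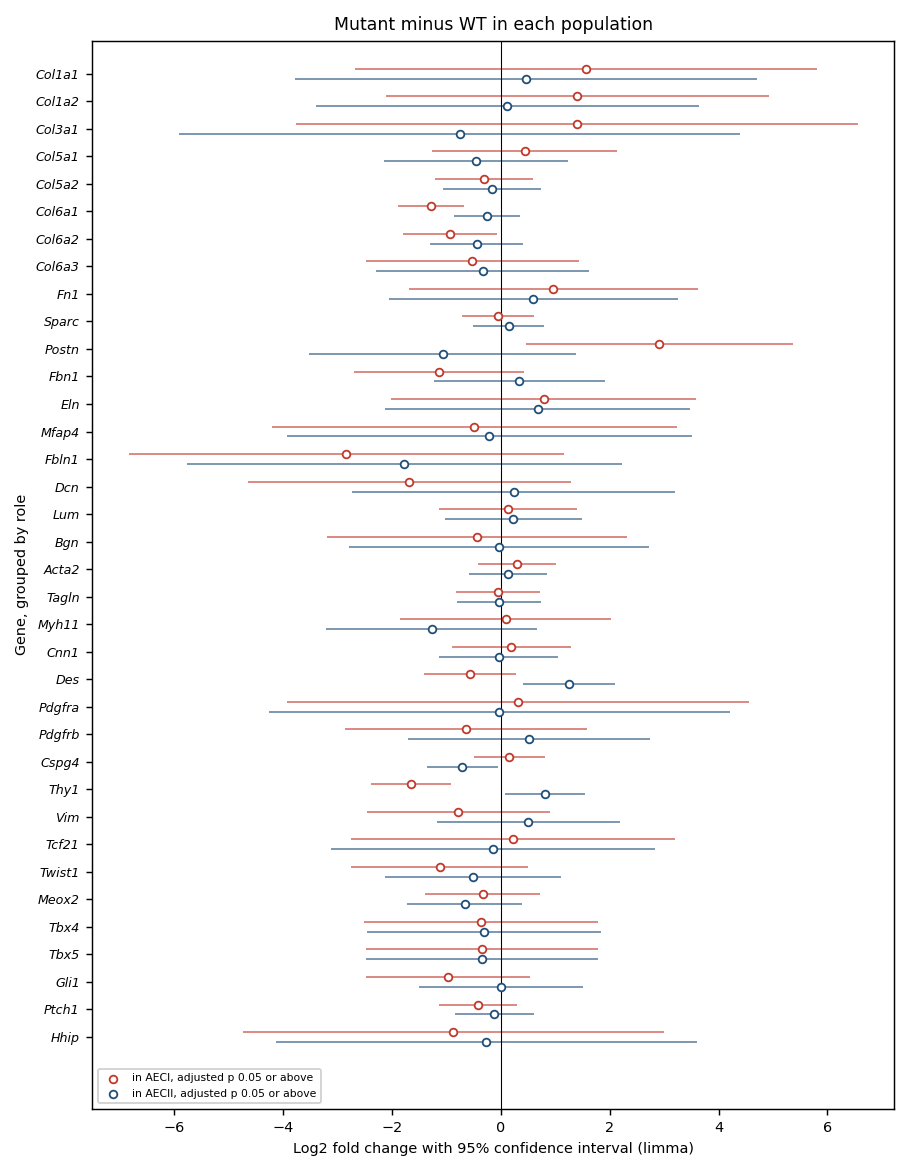
Log2 fold change of mutant over WT (x axis) of the 36 genes (y axis, grouped by role) in AECI (red) and in AECII (blue), with bars for the 95% confidence interval. All points are open because no gene passed an adjusted p of 0.05, and the bars of Col1a1, Col3a1, Pdgfra and Hhip span several log2 units.

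The mutant effect in AECI minus that in AECII was called for 0 of the 36 genes and for 0% of all genes by limma, with 4 of the 36 and 1158 of all genes at an unadjusted p under 0.05. Thy1 had the largest deviation for its spread (-2.45 ± 0.44, limma, adjusted p = 0.999), followed by Des (-1.82 ± 0.51), Col6a1 (-1.03 ± 0.36) and Postn (3.98 ± 1.46). For the fibrillar collagens, the mutant over WT intervals of this unpaired fit were wide: in AECI, Col1a1 ran from -2.68 to 5.80 and Col3a1 from -3.76 to 6.56 on the log2 scale. Intervals were tighter for Sparc (-0.70 to 0.61 in AECI and -0.51 to 0.80 in AECII) and Acta2 (-0.42 to 1.01 in AECI and -0.59 to 0.85 in AECII). Where nothing says that the replicates came from separate litters or sorts, such p-values measure only the spread between these arrays.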

How the data were processed

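RNA of sorted AECI and AECII had been amplified as whole transcriptome and labelled with Cy5, per the labels, for 8 single-colour arrays. The values deposited were log2 signals, normalized by the authors so that all arrays held the same quantiles, which removes any change in total RNA. The submitters' processing notes name limma, with no version. Background correction, spot filters and detection limits were not stated there or in the labels. With 2 arrays per group, their number limits the precision.

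The platform annotation gave 1 symbol for 43941 of 62976 spots, several for 0 and none for 19035. By accession, 33704 named spots matched the RefSeq table of GRCm38.p6, which updated 1424 symbols, and 57 named spots with a missing value were left out. The spot with the highest mean was taken for each of 24568 genes. Of the 36 genes, 14 had 1 spot. Dim genes were kept.

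Groups came from the labels. Group means were fitted to all 8 arrays with lmFit and eBayes (two-sided, limma 3.58.1, R 4.3.3) for 7 comparisons. P-values were adjusted by Benjamini-Hochberg across the 24568 genes, and 0.05 was the threshold. Residual degrees of freedom were 4 (prior 2.87). The fit was also run on simulated data, with independent noise per gene and changes between AECI and AECII alone. Those data held no replicate differences shared by genes, so that they cannot tell how the fit deals with such differences. Alternatives were another normalization, filters on dim genes, averaging the spots of a gene, another prior, array weights, a replicate block, a looser threshold, a fit of the compared arrays alone and leaving out each array. All 36 genes are named. Values of all 8 arrays are given for genes past the threshold, for the 3 smallest p-values of comparisons with no call and for the widest replicate differences, and for further genes picked after their values were seen, as were the motifs TATAAA and CCAAT and the 4 promoters printed. The members and lists were chosen with earlier results of these data known.

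The replicate numbers are shared by the groups. Over all genes, the deviations of same-numbered arrays correlated between -0.069 and 0.028, so that the numbers were not taken to pair the arrays. Over the 36 genes alone they correlated with 0.46 for mutant and WT AECI and 0.80 for mutant and WT AECII, and between -0.61 and -0.37 across the populations.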

Additional observations from a re-analysis of the deposited data

Results flagged for a closer look

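In 3 genes the mutant arrays lay wholly on opposite sides of the WT arrays in AECI and in AECII. Thy1 was lower in mutant than in WT AECI and higher in mutant than in WT AECII, and the difference of these effects was -2.4521 on the log2 scale. The same value of -2.4521 is the difference between the AECI over AECII effect of Thy1 in mutant embryos and that in WT embryos, which also had opposite signs. Des had a difference of -1.8155, with mutant below WT in AECI and above it in AECII, and Cspg4 a difference of 0.8661, with mutant above WT in AECI and below it in AECII. Tested in limma, no difference passed (adjusted p = 0.999 for each), and all 3 genes lay below the dim level on all 8 arrays.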

How the results depend on the processing

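Counts of the 36 genes past the threshold for AECI over AECII ran between 3 and 5 in mutant embryos, between 3 and 5 in WT embryos and between 4 and 7 in the average when 1 array was left out, against 5, 5 and 6 with all arrays. The count was 3 without mutant AECI replicate 1, mutant AECII replicate 1 or mutant AECII replicate 2 in mutant embryos, and 3 without WT AECII replicate 2 in WT embryos. With a replicate block it was 5 in mutant embryos, 4 in WT embryos, where Thy1 was lost (adjusted p = 0.0747 in limma), and 6 in the average. The 4 comparisons that involve the mutant effect gave 0 under every alternative run. Calls of Col6a1, Col6a2 and Sparc held under all alternatives. No call changed sign. Leaving out 1 array moved the median log2 fold change of the 36 genes for AECI over AECII between -1.07 and 0.37 in mutant embryos, between -0.95 and 0.34 in WT embryos and between -1.02 and -0.04 in the average; the cause was not tested. Thy1 in WT embryos gave an adjusted p of 0.147 with a trended and robust prior and 0.119 in a fit of the WT arrays alone. Ptch1 in WT embryos gave 0.0507 in that fit and 0.0534 with the mean of its spots, all in limma. Without detection limits, 12 of the 36 genes had no signal above the dim level on any array, and differences among them have no stated floor.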
